A study of Mus musculus with 5 samples.

Results

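Spinal cord fibroblasts carrying transcripts of Itih5, Hsd11b1, Edn3 and Gpr182 were examined in healthy mice and in mice with experimental autoimmune encephalomyelitis (EAE), an immune-mediated model of multiple sclerosis. Cells positive for a green fluorescent reporter of Col1a1, the gene of the type I collagen alpha 1 chain, were sorted from dissociated spinal cords of Col1a1GFP mice on a C57/BL6 background. Healthy libraries numbered 3 and EAE libraries 2, and all of them came from reporter-bearing mice. The sources used here give neither ages, nor the stage of EAE, nor the number of animals behind a library. Whether libraries of a group came from different animals is not labelled, and p-values then reflect only the spread among these libraries, which may be technical.

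A barcode was taken as a member when it held at least 3 unique molecular identifiers (UMIs, counts of captured molecules) of the 4 markers, from at least 2 of them. The marker sum also had to exceed that of the contrast genes Clec3b, Fmod, Igfbp2 and Cmbl, and at least 2 UMIs of Col1a1, Col1a2, Col3a1 or Dcn were required. This gave 592 members among 4416 collagen-positive barcodes and 4678 barcodes in all. Healthy 1, 2 and 3 held 65, 29 and 65 members, and EAE 1 and 2 held 212 and 221. Members were thus chosen by the measured UMIs of these 12 genes, which are given as values without a test.

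Itih5 encodes a heavy chain of the inter-alpha-trypsin inhibitor family, proteins that bind hyaluronan in the extracellular matrix. Hsd11b1 encodes the enzyme that regenerates active glucocorticoid from its inert form inside cells. Edn3 encodes endothelin 3, the peptide ligand of endothelin receptor B, and Gpr182 encodes an atypical chemokine receptor. Fibroblasts of the spinal cord line the meninges, the perivascular spaces and the nerve roots, and build the matrix there.

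In GRCm38, Itih5 lies on chromosome 2 from 10153571 to 10256529 on the plus strand and Edn3 on the same chromosome from 174760619 to 174784042, also on the plus strand. Hsd11b1 spans 193221634 to 193264075 of chromosome 1 and Gpr182 spans 127747276 to 127751732 of chromosome 10, both on the minus strand. Each is a protein-coding gene in the annotation, and UMIs were counted per gene, without assigning them to exons or untranslated regions.

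The libraries differed in depth. Members had a median of 1364, 3408 and 4263 UMIs in Healthy 1, 2 and 3, and of 5189 and 5972 in EAE 1 and 2. The members' UMIs summed to between 106607 and 292009 in the Healthy libraries, against 1312763 and 1517223 in the EAE libraries. Healthy 1 shared 1239 barcodes with EAE 1 and 996 with Healthy 2, and Healthy 2 shared 683 with EAE 1. Each was counted only in the library where it was deepest. Whether UMIs of 1 of these libraries had entered another was not tested. Healthy 3 and EAE 2 carry a sequencing lane in their labels and the other libraries do not, and these sets are treated as batches.

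Itih5 was the marker that nearly all members shared. It was detected in 93.9% of members, Hsd11b1 in 66.7%, Edn3 in 48.3% and Gpr182 in 26.7%. Among the other collagen-positive barcodes the shares were 41.4%, 11.1%, 12.1% and 5.88%. In the 262 barcodes without the collagen genes they were 3.44%, 6.87%, 0% and 0.382%. The median depths of these populations were 4870, 3802.5 and 2768 UMIs. A count of 0 in 262 barcodes allows a share of up to 1.15%.

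Most members carried no more than a pair of the markers. A pair was seen in 423 members, 3 markers in 127 and all 4 in 42. The pair of Itih5 and Hsd11b1 was the commonest, with 208 members. It made up 53.3% of the members of EAE 1 and 31.2% of those of EAE 2, against 30.8%, 10.3% and 4.62% in Healthy 1, 2 and 3.

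Edn3 was the marker whose level separated the states most widely. In members it stood at 636, 600.3 and 592 CPM (UMIs scaled to a common library total) in Healthy 1, 2 and 3, against 59.4 and 146 in EAE 1 and 2. The groups did not overlap. Among all collagen-positive barcodes, a population that the markers did not choose, Edn3 stood at 149, 156 and 273 CPM in the Healthy and 20.9 and 45.3 in the EAE libraries. With every barcode thinned to 1000 UMIs, Edn3 was detected in 14.0%, 14.6% and 23.4% of Healthy collagen-positive barcodes and in 2.81% and 5.53% of EAE ones. Edn3 was thus detected in a smaller share of EAE barcodes at equal depth. Less RNA per cell also lowers detection, so fewer expressing cells and less RNA per cell were not told apart.

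The other markers separated the states less. Itih5 in members stood at 3498, 1248 and 2038 CPM in the Healthy and 898 and 1051 in the EAE libraries. Hsd11b1 was at 973, 572 and 295 CPM against 261 and 184. Gpr182 was at 112, 113 and 99.3 CPM against 58.7 and 57.3. In members, every Healthy library exceeded both EAE libraries for these 3 genes. The rule asks for at least 3 marker UMIs at any depth, so it sets a higher lowest CPM in shallow barcodes. Members were shallower in the Healthy libraries, with medians of 1364, 3408 and 4263 UMIs against 5189 and 5972. The part of depth in the member levels of all 4 markers was not tested. Among all collagen-positive barcodes, Itih5 stood at 770.2, 295 and 856 CPM in the Healthy and 312 and 446 in the EAE libraries. The groups thus overlapped there, as they did for Gpr182. Hsd11b1 stood there at 153, 94.0 and 94.0 CPM against 63.7 and 58.5, without overlap.

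**Figure D1:**
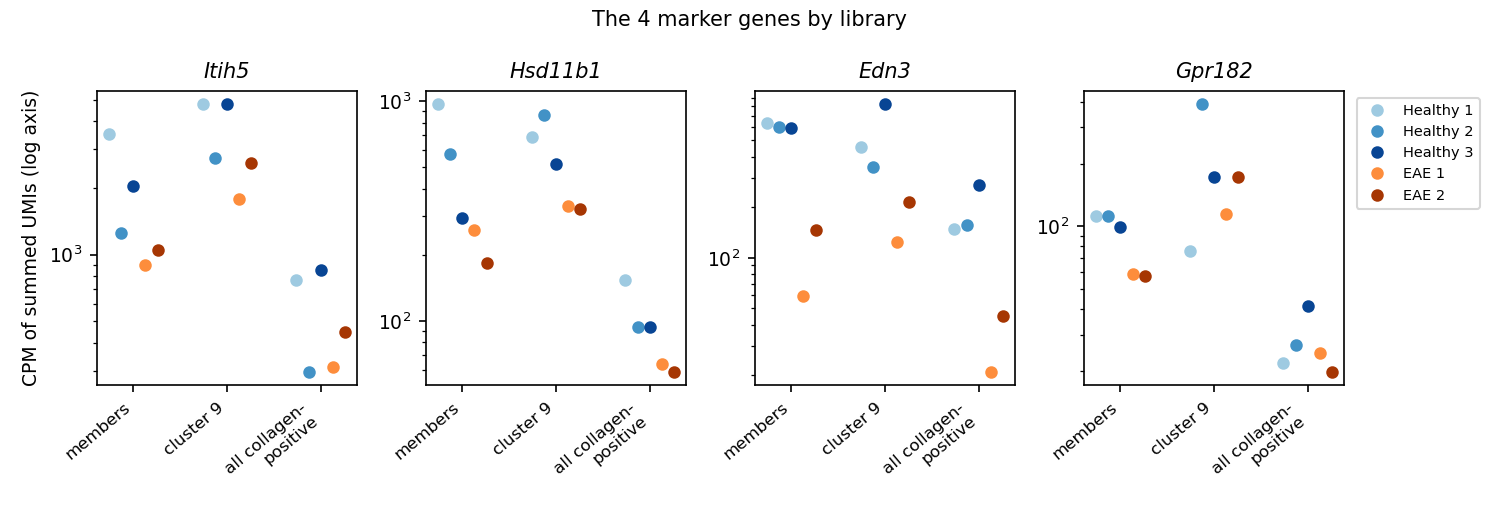
Each point is 1 library, with its CPM of summed UMIs on a log axis, for the 4 marker genes in members, in the barcodes of cluster 9 and in all collagen-positive barcodes. Edn3 in members lies between 592 and 636 CPM in the 3 Healthy libraries and at 59.4 and 146 CPM in the EAE libraries.

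The first question of the design was whether members made up a different share of cells in EAE. They were 9.56%, 7.04% and 17.6% of the collagen-positive barcodes in Healthy 1, 2 and 3, and 12.1% and 18.3% in EAE 1 and 2. The means were 11.4 ± 5.52% (SD, n = 3) and 15.2 ± 4.34% (SD, n = 2). The difference of 3.81 percentage points was smaller than the spread of the Healthy libraries, and a two-sided exact permutation test over libraries gave p = 0.4, where the smallest p this design allows is 0.2. Within batches the differences were 3.84 points (Healthy 1 and 2 against EAE 1) and 0.664 points (Healthy 3 against EAE 2).

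The direction of this difference turned with depth. With each barcode thinned to 1000 UMIs, members were 8.58%, 3.19% and 5.13% of Healthy barcodes and 2.16% and 3.33% of EAE ones, a difference of −2.88 points (exact permutation p = 0.4). The numbers of barcodes deep enough for thinning were 408, 376 and 351 for Healthy 1 to 3, against 1710 and 1140 for EAE. Which state held more of these cells was therefore not determined at this depth.

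**Figure D2:**
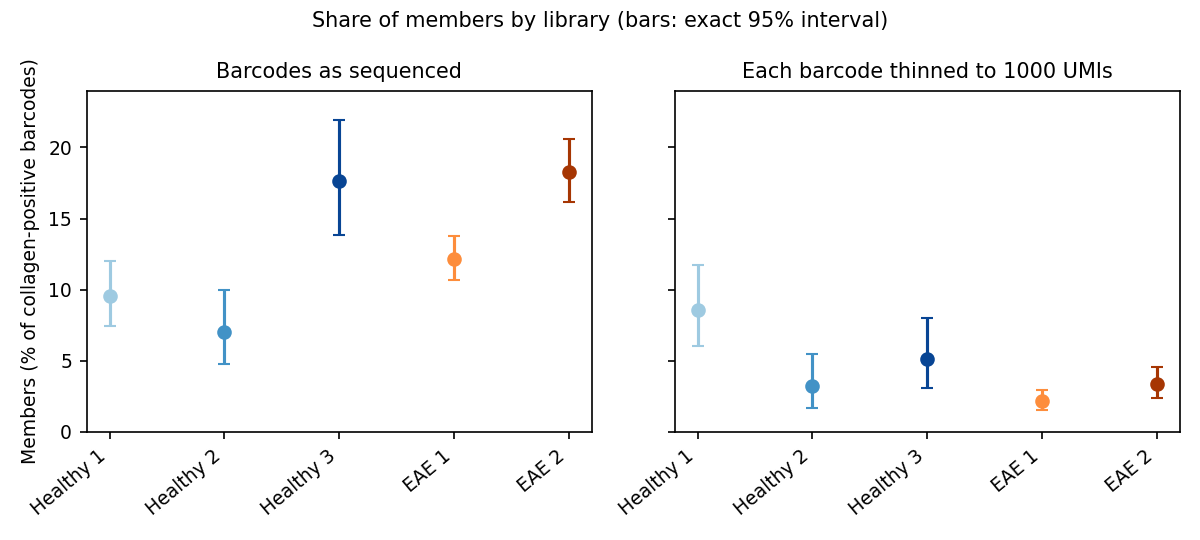
Members as a percentage of collagen-positive barcodes in each library, as sequenced (left) and after thinning every barcode to 1000 UMIs (right), with exact (Clopper-Pearson) 95% intervals that cover counting error only. EAE 2 is highest at 18.3% on the left, and Healthy 1 is highest at 8.58% on the right.

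The label was checked by clustering all barcodes by their most variable genes, and members did not form 1 population. They were spread over 12 clusters, and the cluster with the highest share of them, cluster 9, held 117 members among its 195 barcodes. The 10 leading genes of cluster 9 were Ccl8, Spp1, Itih5, Ubd, Saa1, Hsd11b1, Gpr182, Ccl12, Ccl2 and Col13a1, which include 3 of the 4 markers. It held 6, 5 and 7 members in Healthy 1, 2 and 3, and 56 and 43 in EAE 1 and 2. Of its 78 other barcodes, 32 had contrast genes at least as high as the markers, 27 had 3 or more UMIs of 1 marker only and 19 had fewer than 3 marker UMIs.

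The remaining 80.2% of members lay in clusters led by other genes, and these differed between libraries. Cluster 2, led by Clec3b, Fmod and Igfbp2 and with Edn3 and Itih5 among its 10 leading genes, held 49, 8 and 27 members of Healthy 1, 2 and 3. Cluster 0, led by Myoc, Gsn and Smoc2, held 13 of the 29 members of Healthy 2, and cluster 8, led by Gfra1, Col9a2 and Dlk1, held 28 of the 65 members of Healthy 3. Among EAE members, 72 of EAE 1 lay in cluster 6, led by Lcn2, Saa3 and Mmp3, and 95 of EAE 2 lay in cluster 5, led by Pltp, Tmem132c and Tmem150a. The members are therefore described by their rule and not as 1 cell type, and the counts for cluster 9 are given after the results on state.

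**Figure D3:**
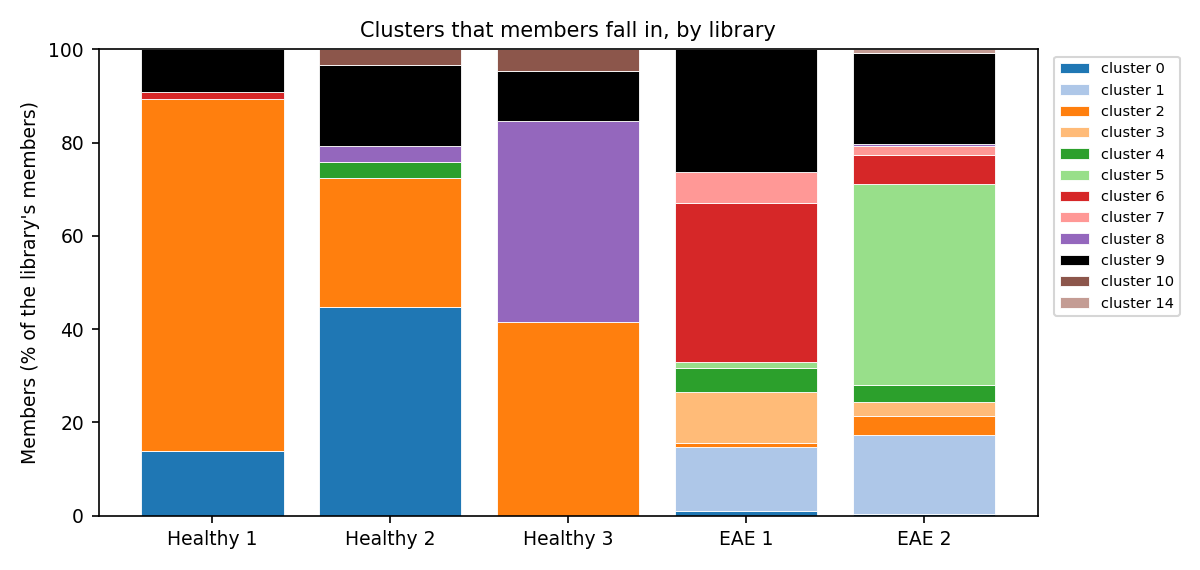
Bars show, for each library, the percentage of its members in each expression cluster, with cluster 9 in black. Healthy members lie mostly in clusters 0, 2 and 8 and EAE members mostly in clusters 1, 5, 6 and 9.

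Members just inside the marker threshold were rarely in cluster 9. Of the 100 members with exactly 3 marker UMIs, 2% were in cluster 9, against none of the 125 barcodes with 2 UMIs from 2 markers. The share in cluster 9 was 6.38% with 4 or 5 UMIs, 16.3% with 6 to 9 and 40.9% in the 198 members with 10 or more. Spp1, which encodes the secreted matrix protein osteopontin, stood at 621 CPM just outside the threshold, at 682 with 3 UMIs and at 4843 with 10 or more. In the other collagen-positive barcodes it was at 532. Marker sums reached 68 UMIs, with a median of 14 in cluster 9, 12 in cluster 2 and 3 to 6 in the other clusters with at least 18 members.

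Genes outside the rule that stood higher in members than in the other collagen-positive barcodes of the same library are given as a description, since the rule chose on the same contrast. Of 2974 genes with a mean of at least 50 CPM in members, 277 were higher and 260 lower in all 5 libraries. Spp1 was the only one at least 2-fold higher in all of them, on the log2(CPM + 10) scale. It stood at 5246, 1463 and 1592 CPM in Healthy members and at 2899 and 1324 in EAE members, against 367 to 638 CPM in the others. Spp1 in members did not pass the test between states (log2 fold change −0.18 ± 0.42 SE, edgeR adjusted p = 0.844).

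The next genes in that order were Ggt5, a gamma-glutamyltransferase that acts on leukotrienes and glutathione, the transmembrane collagen Col13a1, and Scube1, Tmem204, the growth factor Bmp4 and the receptor kinase antagonist Spry1. The laminin chain Lama1, the transcription factors Tbx18 and Msc, the alarmin Il33 and the basement membrane collagens Col15a1 and Col4a5 also belonged to the 20 leading genes. Il33 was at 645, 441 and 360 CPM in Healthy members and at 167 and 85.0 in EAE members, against 50.5 to 177 in the others. Against the 693 barcodes chosen by the same rule with markers and contrast genes exchanged, 10 of the 20 leading genes were higher in all 5 libraries, among them Spp1, Ggt5, Scube1, Spry1, Il33, Tbx18 and Col15a1. The other 10, which include Col13a1, Bmp4, Lama1, Msc and Col4a5, were not. The 8 genes at the lower end of that order were Rgs5, Rbp4, Ptgds, Tagln, Mylk, Cdkn2a, Clu and Myoc. Ptgds, a prostaglandin D synthase of arachnoid cells, was at 0 to 83.8 CPM in members and at 177 to 1106 in the others.

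The second question was how expression in members differed between EAE and healthy cords. UMIs were summed over the members of each library and tested with edgeR. Of 4838 genes tested outside the rule, 353 (7.3%) rose and 294 (6.08%) fell in EAE with an adjusted p under 0.05, with a median log2 fold change of 0.03 over all of them. Most acute phase, interferon-induced, class I and complement genes tested rose, and most endoneurial fibroblast markers and small leucine-rich proteoglycans tested fell. The groups did not overlap for 337 of the rises and 270 of the falls, where 20.2% of all tested genes lay wholly above and 18.3% wholly below, but a call itself favours separate groups. The counts depended on single libraries and on the barcodes used: without EAE 1 they were 66 and 39, without EAE 2 they were 136 and 75, without Healthy 3 they were 159 and 120, and without Healthy 1 they were 659 and 473. With barcodes thinned to 1000 UMIs they were 48 (7.44%) and 30 (4.65%) of the 645 genes that could then be tested. Without barcodes that carried other cell type markers they were 13 and 4 of 1978, and 13 of the 194 rises tested again were called again. That setting left out barcodes with at least 2 UMIs summed over mural, endothelial and immune markers. These include Ramp2, detected in 49.2%, 79.3% and 86.2% of Healthy 1, 2 and 3 members and in 50.9% and 68.3% of EAE ones. Healthy 2 was dropped, and 43 and 13 members were left in Healthy 1 and 3 and 56 and 41 in EAE 1 and 2. Barcodes left out for Ramp2 alone were not separated. DESeq2 called 153 and 127.

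The largest rises included Saa3, Lcn2 and Timp1. Saa3, an acute phase serum amyloid protein, stood at 37.4, 9.38 and 0 CPM in Healthy members and at 10163 and 2387 in EAE members (log2 fold change 9.26 ± 0.57 SE, edgeR adjusted p = 2.33e-11). Whether reads were shared between Saa3 and its relatives Saa1 and Saa2 was not tested. The 12 largest rises were picked among genes that averaged at least 50 CPM and whose groups did not overlap. Lcn2, the iron-siderophore binding protein lipocalin 2, had 1 UMI in Healthy members and 2879 in EAE members, a ratio of 514 (counting interval 92.2 to 20321). EAE 1 held 2506 of these UMIs (1909 CPM) and EAE 2 held 373 (246 CPM), and the ratio for EAE 2 alone was 124. Timp1, an inhibitor of matrix metalloproteinases, was at 28.1, 18.8 and 3.42 CPM in Healthy members and at 2456 and 553 in EAE members (log2 fold change 6.88 ± 0.48).

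A group of these genes had no UMI in any Healthy member. Ly6a, a surface antigen known as Sca-1, was at 437 and 154 CPM in EAE 1 and 2, at least 48.1-fold above the floor of 3 UMIs over all Healthy members (25.9-fold in EAE 2 alone). The chemokine Ccl8 was at 401 and 87.0 CPM, at least 39.2-fold higher (14.7-fold in EAE 2 alone), and the metalloproteinase Mmp3 was at 353 and 111 CPM, at least 37.6-fold higher (18.7-fold in EAE 2 alone). The floor corresponds to 5.93 CPM. Of the 353 rises, 12 had no UMI in Healthy members. The chemokine Cxcl10, which recruits T cells, was at 0, 18.8 and 13.7 CPM against 643 and 186 (log2 fold change 4.96 ± 0.51). The remaining rises among the 12 largest were Dclk1, Plac8, Aqp1, H2-Q7 and Ctsc, each with no more than 3 UMIs in Healthy members.

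**Figure D4:**
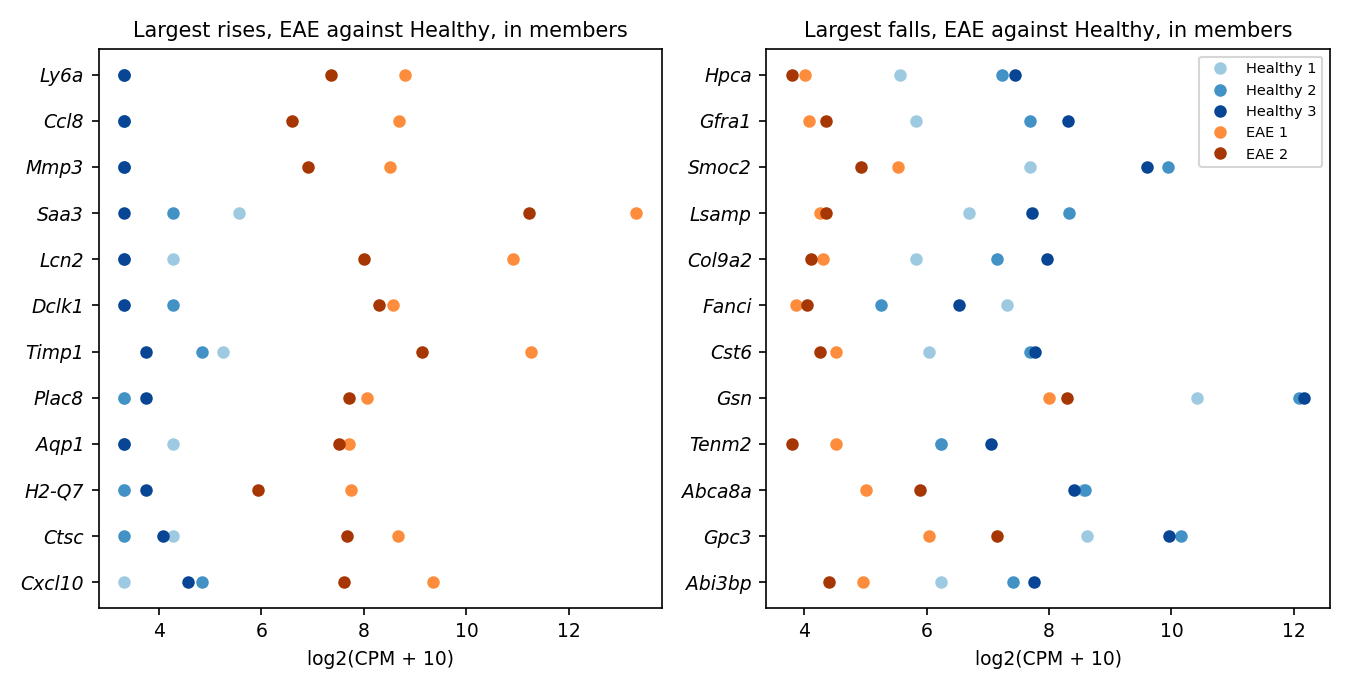
Points give log2(CPM + 10) of each library in members for the 12 largest rises (left) and the 12 largest falls (right). Genes were picked among those that averaged at least 50 CPM and whose groups did not overlap. Saa3 spans the widest range, from 0 CPM in Healthy 3 to 10163 CPM in EAE 1.

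The promoters of 4 of these genes that rose together are shown because serum amyloid, lipocalin and chemokine genes are known targets of NF-kappaB, interferon and AP-1 factors. Sequences of 250 bases before and 50 after the start are from RefSeq (GRCm38.p6): Saa3 at chr7:46715627-46715926, Lcn2 at chr2:32387690-32387989 and Cxcl10 at chr5:92348840-92349139 on the minus strand, and Ccl8 at chr11:82114935-82115234 on the plus strand. Capitals mark matches, on either strand, to GGGA and CC with any 4 bases between them (NF-kappaB type), to GAAA and GAAA with any 2 bases between them (interferon-stimulated response element type) or to TGANTCA (AP-1 type, where N is any base). Of 32851 mouse promoters of that length, 20.7%, 3.44% and 7.81% hold the respective match. Cxcl10 held all of them, with 2 NF-kappaB type matches, Saa3 held 1 interferon type match, and Lcn2 and Ccl8 held none in this window.
Saa3: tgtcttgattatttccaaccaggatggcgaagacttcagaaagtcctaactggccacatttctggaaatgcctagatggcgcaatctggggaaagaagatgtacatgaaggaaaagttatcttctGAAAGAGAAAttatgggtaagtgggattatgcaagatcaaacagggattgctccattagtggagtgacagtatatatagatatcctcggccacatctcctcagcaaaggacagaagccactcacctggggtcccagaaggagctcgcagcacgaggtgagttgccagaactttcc
Lcn2: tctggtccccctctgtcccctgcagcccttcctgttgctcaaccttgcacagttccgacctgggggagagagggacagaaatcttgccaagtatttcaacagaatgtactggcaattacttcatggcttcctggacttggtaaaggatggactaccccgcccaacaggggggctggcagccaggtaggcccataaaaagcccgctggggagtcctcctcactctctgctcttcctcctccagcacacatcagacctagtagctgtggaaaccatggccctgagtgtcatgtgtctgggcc
Cxcl10: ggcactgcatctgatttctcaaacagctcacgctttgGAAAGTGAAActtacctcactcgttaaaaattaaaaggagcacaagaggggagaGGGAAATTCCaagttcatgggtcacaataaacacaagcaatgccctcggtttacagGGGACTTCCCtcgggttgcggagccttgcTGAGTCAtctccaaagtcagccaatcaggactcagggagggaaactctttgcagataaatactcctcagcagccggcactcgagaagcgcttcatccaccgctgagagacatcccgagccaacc
Ccl8: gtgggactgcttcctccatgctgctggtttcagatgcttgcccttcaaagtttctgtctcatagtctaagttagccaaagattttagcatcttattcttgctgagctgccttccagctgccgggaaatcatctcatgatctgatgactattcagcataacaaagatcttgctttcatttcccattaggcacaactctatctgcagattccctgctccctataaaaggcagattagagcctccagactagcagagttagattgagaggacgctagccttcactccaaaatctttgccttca

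Beyond the largest rises, lists of genes chosen for this tissue moved as follows. Genes with few UMIs were not tested. This left 9 of 12 acute phase and 15 of 30 interferon-induced genes, and 13 of 15 class I and 9 of 17 complement genes. A gene could pass this filter through the EAE libraries alone, so low genes could enter because they were high there. Of 9 acute phase genes tested, 7 rose and 1, Steap4, fell (median log2 fold change 2.86). Of 15 interferon-induced genes, 11 rose and none fell (median 2.04), and of 13 genes of class I antigen presentation, 10 rose and none fell (median 1.47). Among them Iigp1, an interferon-inducible GTPase, was at 37.4, 28.1 and 3.42 CPM in Healthy members and at 401 and 193 in EAE members. B2m, the light chain of class I molecules, was at 767, 1416 and 586 CPM against 5008 and 2191. In both genes the groups did not overlap. In the other collagen-positive barcodes, 13 of 27 interferon-induced and 10 of 13 class I genes rose and none fell. Of 9 acute phase genes 3 rose there and 1 fell.

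Complement genes rose as well, in 6 of 9 (median 2.39), against 5 rises and 1 fall of 11 in the other collagen-positive barcodes. C3, the central complement component, was at 18.7, 56.3 and 0 CPM in Healthy members and at 429 and 575 in EAE members (log2 fold change 4.91 ± 0.68, edgeR adjusted p = 0.000312). Of 13 chemokines, 4 rose and none fell. They were Ccl8, Cxcl10, Cxcl2 and Ccl19, a ligand that guides dendritic cells and T cells. Of 16 cytokine and NF-kappaB genes, 5 rose, among them Il6 and the NF-kappaB inhibitor Tnfaip3, and 2 fell. The fallers were Il33 (−1.82 ± 0.33) and the cytokine signalling inhibitor Socs3 (−1.66 ± 0.39). In cluster 9, Socs3 had a positive value that did not pass the test (1.25, edgeR adjusted p = 0.136).

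Matrix genes were remodelled in both directions. Outside the rule, 2 of 4 fibrillar collagen genes rose, Col5a1 (2.24 ± 0.37) and Col5a2 (2.21 ± 0.36). The rule gene Col1a1 stood at 1478, 3171 and 2658 CPM in Healthy members and at 7168 and 7589 in EAE members. Of 14 matricellular and scar genes 7 rose and 2 fell, of 17 elastic fibre genes 7 rose and 3 fell, and of 16 basement membrane genes 4 rose and none fell. In the other collagen-positive barcodes the rises and falls of these lists were 6 and 2, 8 and 3, and 5 and 2, of as many genes. In cluster 9 none of 6 matricellular and scar genes and none of 10 elastic fibre genes rose, and 1 of each fell. Lox, which crosslinks collagen and elastin, was at 93.5, 18.8 and 37.7 CPM against 558 and 324. Col8a1, a short-chain collagen of vessel walls, was at 56.1, 46.9 and 68.5 CPM against 935 and 885.

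Small leucine-rich proteoglycans, which organise collagen fibrils, went mostly the other way. Of 6 tested outside the rule, 5 fell, namely Prelp, Podn, Lum, Ecm2 and Ogn, and Bgn rose (median −1.39). In the other collagen-positive barcodes 8 of 9 fell and 1 rose. Podn was at 74.8, 122 and 92.5 CPM in Healthy members and at 24.4 and 21.1 in EAE members. Sparcl1, a matricellular protein also made by astrocytes and vessels, was at 1459, 1051 and 1682 CPM against 214 and 455 (log2 fold change −2.22 ± 0.37). Its groups did not overlap.

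Markers of endoneurial fibroblasts, the fibroblasts inside nerve bundles, fell. Of 9 endoneurial fibroblast markers tested, 8 fell and 1, Wif1, rose (median −3.36). In the other collagen-positive barcodes 9 of 10 fell and 1 rose. The test of the difference, given below, called none of them, so these falls were not particular to members. Gfra1, which encodes a co-receptor of GDNF-type neurotrophic ligands, was at 46.8, 197 and 308 CPM in Healthy members and at 6.86 and 10.5 in EAE members (log2 fold change −4.52 ± 0.49). Outside that list, Gsn, which severs actin filaments, was at 1365, 4315 and 4592 CPM against 247 and 303 (−3.68 ± 0.51). Among falls with a mean of at least 50 CPM and no overlap of the groups, the calcium sensor Hpca had the largest (−4.57 ± 0.52). Smoc2, Lsamp, Col9a2, Fanci, Cst6, Tenm2, Abca8a, Gpc3 and Abi3bp completed these 12. Below that mean, Myoc and Reln also fell, from 31 and 27 UMIs in Healthy members to 2 and 1 in EAE members. Healthy members lay partly in clusters 0 and 8, led by Gsn, Smoc2, Gfra1 and Col9a2, where EAE members were few, and the part of this mix in the falls was not tested. In cluster 9, Gsn fell by 1.08 and Abca8a by 2.49 on the log2 scale.

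The pathways of the 4 markers were followed through their other genes. In the glucocorticoid list, 4 of 14 tested genes fell and none rose (median −0.71), whereas in cluster 9 none of 6 fell and 3 rose, namely Dusp1, Mt1 and Mt2. The glucocorticoid-induced Tsc22d3, which encodes the leucine zipper protein GILZ, was at 281, 122 and 202 CPM in Healthy members and at 51.0 and 40.9 in EAE members (−2.08 ± 0.35). Sult1a1, Cdkn1a and Ddit4 also fell. The receptor gene Nr3c1 did not pass the test (−0.73 ± 0.33, edgeR adjusted p = 0.148), nor did H6pd, which supplies the cofactor of the Hsd11b1 enzyme (0.66 ± 0.35, edgeR adjusted p = 0.234). In the other collagen-positive barcodes, 6 of 16 genes of this list fell and 2 rose, with Tsc22d3 at −2.09. The test of the difference, given below, called none of the list, so its falls were not particular to members.

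Of 3 other genes of the endothelin system, 1 rose and 1 fell, against 2 and 1 of 4 in the other collagen-positive barcodes. Ednra, encoding receptor A, was at 9.35, 18.8 and 6.85 CPM in Healthy members and at 40.4 and 72.5 in EAE members (2.53 ± 0.58). Ece1, the enzyme that releases mature endothelins, was at 402, 150 and 596 CPM against 89.9 and 131 (−1.84 ± 0.36). In both genes the groups did not overlap. Ednrb, the receptor for endothelin 3, was at 0 CPM in the members of all Healthy libraries and at 0.762 and 1.32 in EAE members, and was not tested.

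In the hyaluronan list, 2 of 7 tested genes rose and none fell, against 3 rises and no fall of 14 in the other collagen-positive barcodes. Itih3, another heavy chain, was at 9.35, 28.1 and 0 CPM in Healthy members and at 145 and 119 in EAE members (4.01 ± 0.59), and the hyaluronan receptor Cd44 was also higher, with 3 UMIs in Healthy and 208 in EAE members, a ratio of 12.4 (counting interval 4.18 to 60.5). Among 8 genes of atypical chemokine receptors, their ligands and adrenomedullin, Cxcl10 and Ccl19 rose, and Adm (−1.48 ± 0.34) and its receptor partner Ramp2 (−1.45 ± 0.36) fell. The ligand Cxcl12 did not pass the test (0.33 ± 0.33, edgeR adjusted p = 0.579).

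Signalling genes with smaller lists moved in both directions. In the Wnt list 5 of 9 genes rose and 1, Wnt5a, fell, with Sfrp4, a secreted Wnt antagonist, at 18.7, 56.3 and 10.3 CPM in Healthy members and at 433 and 169 in EAE members. Of 7 retinoid genes, 3 rose, among them Aldh1a2, the enzyme that makes retinoic acid, at 65.5, 113 and 65.1 CPM against 616 and 478. Its groups did not overlap. Of 17 lipid and cholesterol genes 5 fell, among them Idi1, an enzyme of isoprenoid synthesis, and 1, the cholesterol exporter Abca1, rose. The other collagen-positive barcodes gave 5 rises and 1 fall of 16 Wnt genes and 8 and 1 of 13 retinoid genes. Of 20 lipid and cholesterol genes, 3 rose there and 13 fell.

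Markers of other cell types were detected in members, and some differed between the states. The mural list summed to 243, 75.0 and 78.8 CPM in Healthy members and to 361 and 448 in EAE members, and its 3 tested genes Acta2, Tagln and Des rose. Of its other genes, Rgs5 in members was at 0 in every Healthy library and at 2.29 and 47.5 CPM in EAE 1 and 2. Myh11 was at 0 in Healthy 1, Healthy 2 and EAE 1. Kcnj8 was present in every library, in 12.3%, 6.90% and 7.69% of Healthy members and in 6.13% and 6.33% of EAE members. The 12 immune markers summed to 0, 0 and 3.42 CPM in Healthy members and to 25.9 and 13.2 in EAE members, with Ptprc at 0 in all libraries but EAE 2. The 10 endothelial markers summed to 505 to 816 CPM in Healthy members and 412 and 522 in EAE members. Cldn5, Kdr and Tek were at 0 in every library, and most of the Healthy sum came from Ramp2, at 421 to 732 CPM. Of 3 endothelial markers tested, Emcn rose and Ramp2 fell. Emcn was detected in 0%, 3.45% and 4.62% of members of Healthy 1, 2 and 3, and in 34.9% and 30.3% of EAE 1 and 2. Cdh5 was detected in 10.8%, 20.7% and 23.1% against 46.7% and 48.4%. Pecam1 was in 3.08%, 0% and 18.5% against 1.42% and 10.4%, and these shares were not corrected for depth. The 9 Schwann markers summed to 346 to 541 CPM in Healthy members and 212 and 175 in EAE members, with Sox10 at 0 in every library, S100b at 74.8, 150 and 267 CPM in Healthy members and the myelin gene Pmp22 at 234, 216 and 247. The part of these cells in the results was not tested.

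The third question was whether the change with state differed between members and the other collagen-positive barcodes, in which 783 genes (8.16%) rose and 850 (8.86%) fell of 9591 tested. A test of that difference called 48 genes (0.458%) with a more positive and 15 (0.143%) with a more negative change in members, of 10482 tested. With library totals in place of the scaling factors the numbers were 43 and 27, so that the share of positive calls was 61.4% in place of 76.2%, and the median difference moved from 0.09 to −0.05. Saa3 was the clearest of the acute phase genes: in the other barcodes it stood at 528, 37.0 and 0 CPM in the Healthy and 3426 and 1159 in the EAE libraries, and the difference was 5.12 ± 0.55 on the log2 scale (edgeR adjusted p = 7.06e-17). Lcn2 (5.65 ± 0.76) and Cxcl10 (2.49 ± 0.50) also rose more steeply in members. In Healthy 1 these genes stood higher in the other barcodes than in members, with Lcn2 at 226 against 9.35 CPM. Healthy 1 shared many barcodes with EAE 1, and the part of UMIs from that library in these values was not tested.

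Ccl19 rose in members, while in the other barcodes it was at 138, 244 and 146 CPM in the Healthy and 279 and 106 in the EAE libraries (difference 3.26 ± 0.34, edgeR adjusted p = 3.56e-18). Sfrp4 behaved alike (difference 3.10 ± 0.38). The contractile genes Acta2 and Tagln differed by 4.89 ± 0.42 and 3.83 ± 0.37, but after thinning to 1000 UMIs the Acta2 difference was −0.060. Acta2 was at 259, 929 and 716 CPM in the other Healthy barcodes and at 289 and 238 in the other EAE barcodes, and 18.7, 18.8 and 6.85 against 106 and 157 in members. The mural cells among the other barcodes were not separated from the fibroblasts here, and their part in this difference was not tested. The falls of Hpca, S100b, Tenm2 and Ebf2 were steeper in members, by 1.52 to 1.85 on the log2 scale, but each turned direction in at least 1 alternative. S100b differed by 1.48 after thinning, by 0.59 without barcodes carrying other cell type markers and by 6.22 with cluster 9 barcodes. Tenm2 differed by 1.35 without those barcodes and by 2.02 with cluster 9 barcodes, where Hpca differed by 8.52 and Ebf2 by 1.76. None of these reversed values passed the test (edgeR adjusted p of 0.501 or higher). In cluster 9, Tenm2 was at 0 CPM in every library and Hpca at 0 in all but EAE 1, with 5.09, so their differences there rest on the floor.

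Cluster 9 barcodes, taken in place of members after the data had been seen, gave 99 rises (9.96%) and 43 falls (4.33%) of 994 genes tested, from 14, 13 and 24 Healthy and 87 and 57 EAE barcodes. Of the genes called in both populations, 50 were higher in both, 30 were lower in both and 3 were opposite. Saa3 was at 0 in every Healthy library of cluster 9 and at 5366 and 5457 CPM in EAE 1 and 2. Sparcl1 (−2.02), Slc6a13, a transporter of gamma-aminobutyric acid and taurine (−1.84), Il33 (−1.28) and Ece1 (−1.27) fell there as in members. The acute phase (4 of 4), complement (4 of 5), interferon-induced (4 of 7) and class I (4 of 7) lists held rises and no falls there. Of 4 small leucine-rich proteoglycans 1 fell, of 2 endoneurial markers 1 fell, of 5 retinoid genes 2 rose and of 6 lipid and cholesterol genes 3 fell. Basement membrane genes gave 1 rise of 11, and the fibrillar collagen, Wnt and hyaluronan lists, with 1, 1 and 2 genes tested, gave no call. Outside cluster 9, members gave 283 rises (6.22%) and 268 falls (5.89%) of 4548 genes.

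Chemokine calls are given for both populations, whose difference was not tested and which share 117 barcodes. The chemokine genes of this paragraph were named after their values were seen. In cluster 9, 6 of 9 chemokines tested rose. The monocyte chemokine Ccl7 was at 76.1, 130 and 19.2 CPM in its Healthy libraries and at 2002 and 818 in EAE (4.59, edgeR adjusted p = 0.000129), while in members it did not pass the test (0.80 ± 0.36, edgeR adjusted p = 0.151). The neutrophil chemokine Cxcl1 was at 76.1, 43.3 and 19.2 CPM against 935 and 769 (4.65), and Ccl2 at 76.1, 43.3 and 403 against 2340 and 1159 (2.86). The groups did not overlap in any of these 3 genes. In cluster 9 of Healthy 1, 76.1 CPM is 1 UMI, so the low Healthy values here rest on few UMIs.

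Immediate early genes, which respond within minutes to stimuli that include tissue dissociation, were called in opposite directions in the 2 populations. In members 7 of 18 fell and none rose, whereas in cluster 9, 10 of 15 rose and none fell. The opposite calls were Fos, Junb and Ier2. Fos was at 6472, 5244 and 3192 CPM in Healthy members against 1866 and 1981 in EAE members, and at 305, 1082 and 710 CPM against 2720 and 2708 in cluster 9. Its log2 fold changes were −1.19 ± 0.39 (edgeR adjusted p = 0.0423) and 1.95 (edgeR adjusted p = 0.00551). Apod, a lipid carrier abundant in nerve-associated fibroblasts, fell in members (−2.13 ± 0.48) and did not pass the test in cluster 9, with 24515, 22204 and 30554 CPM against 27951 and 39949 (edgeR adjusted p = 0.179). The Healthy barcodes of cluster 9 summed to only 13135, 23104 and 52138 UMIs, and the clustering was made from the same counts, so the values describe this grouping.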

How the data were processed

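Single cells were profiled with the 10x v2 kit. The authors deposited UMI counts per gene and barcode, made with Cell Ranger 2.1.1 on mm10, with Seurat 3 also named, per the submitters' processing notes. The sources used here do not state upstream filters.

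From these counts, barcodes were kept if they had 200 genes or more and no more than 10% mitochondrial UMIs (6904 of 7205), and each barcode shared by Healthy 1, Healthy 2 and EAE 1 was counted once, where it was deepest (4678). No doublet caller was run and doublets were not removed. Clusters were made with scanpy 1.11.5 and leidenalg 0.10.2 on the most variable genes. Member UMIs were summed per library and tested with the quasi-likelihood test of edgeR 4.0.16 (R 4.3.3) with trimmed mean scaling and a batch term, adjusted by Benjamini-Hochberg over all genes. CPM are relative to the summed UMIs of that population. Shares were compared with an exact permutation test over libraries. DESeq2 1.42.0, other scalings, filters, thinning and leaving out each library were alternatives. In simulated counts for the state comparison in members, 93.4% of 4-fold and 14.1% of 2-fold changes were recovered, and for the difference 72% and 0%. At 4-fold, 8 and 5 unchanged genes were called. The simulation gave all genes the same dispersion and no batch effect, and changed only genes above 50 CPM. Recovery in the real libraries may therefore be lower. Genes named are the 12 largest rises and falls among genes that passed the test, averaged 50 CPM or more and did not overlap, up to 2 in each direction per list, up to 6 in each direction for the difference, and for members against others the 20 highest and 8 lowest. The members and lists were chosen with earlier results of these data known.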

Additional observations from a re-analysis of the deposited data

Results flagged for a closer look

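The change with state differed between members and the other collagen-positive barcodes, by an interaction test in edgeR, for the 12 genes given here as differences of log2 fold changes. More positive in members were Ly6a (9.27), Ccl8 (8.79), Lcn2 (5.65), Saa3 (5.12), Acta2 (4.89) and Tagln (3.83). Ly6a and Ccl8 had no UMI in Healthy members, so their fitted differences depend on the prior count and are no bounds. More negative in members were the calcium sensor Hpca (−1.85), the Schwann cell marker S100b (−1.76), the adhesion protein Tenm2 (−1.63), Bex1 (−1.59), Cmc2 (−1.57) and the transcription factor Ebf2 (−1.52). S100b stood at 74.8, 150 and 267 CPM in Healthy members and at 25.9 and 16.5 in EAE members.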

How the results depend on the processing

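No paired analysis was possible because the labels of Healthy and EAE libraries share only the number 2 and EAE 1 carries none. The share difference of 3.81 points was 6.94 with barcodes as deposited, −2.88 after thinning to 1000 UMIs and 0.738 to 6.91 with single libraries left out. For state in members (353 rises, 294 falls), DESeq2 gave 153 and 127, no filter on low counts 567 rises, no batch term 237 and 162, thinning 48 and 30, leaving out barcodes with other cell type markers 13 and 4, cluster 9 barcodes 99 and 43, and leaving out single libraries 66 to 659 and 39 to 473. With other cell type markers left out, Healthy 2 was dropped for its 8 members. For the difference (48 and 15), DESeq2 gave 13 and 1, barcodes as deposited 105 and 23, thinning 25 and 2, other cell type markers left out 30 and 1, cluster 9 barcodes 188 and 7, library totals 27 negative calls, and single libraries left out 24 to 69 and 1 to 22, with 24 and 4 without EAE 1, 35 and 1 without EAE 2, 31 and 4 without Healthy 2, and 31 and 7 without Healthy 3. In cluster 9 the state change reversed for Tgfbi (0.24), Socs3 (1.25), Btg2 (0.62), Slc7a11 (−0.31), Wnt4 (−0.98), Fos (1.95), Junb (2.48) and Ier2 (1.44), and with other cell type markers left out for Steap4 (0.24). The difference reversed for Acta2 (−0.060), S100b (1.48) and Bex1 (1.06) after thinning, for S100b (0.59) and Tenm2 (1.35) with other cell type markers left out, and for Hpca (8.52), S100b (6.22), Tenm2 (2.02), Cmc2 (0.58) and Ebf2 (1.76) in cluster 9. None of these reversed differences passed the test. The causes were not tested. The 106607 to 292009 member UMIs of the Healthy libraries limit all low genes.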

Other observations

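Transport, morphogen and growth factor lists gave calls in both directions between Healthy and EAE members. Of 9 solute carriers of the meninges and barriers tested with edgeR, 2 rose and 3 fell (median log2 fold change −0.69, against 0.03 over all genes). Slc39a14, a zinc and iron importer, was at 9.35, 0 and 10.3 CPM in Healthy members and at 208 and 85.7 in EAE members. Slc22a8, an organic anion transporter, went the other way, at 74.8, 28.1 and 44.5 CPM against 4.57 and 3.30. The groups did not overlap in either gene.

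Of 13 genes of TGF-beta and BMP signalling, 2 rose and 3 fell (median −0.19). The ligands Bmp4 and Bmp5 and the BMP-induced Id1 fell, with Id1 at 103, 56.3 and 106 CPM in Healthy members and at 21.3 and 27.7 in EAE members. Id2 and the receptor gene Tgfbr2 rose. Of 17 transcription factors of meningeal fibroblasts, 2 rose and 4 fell (median 0.22). Tbx18, a factor of pial and mural lineages, was at 206, 150 and 154 CPM against 74.7 and 72.5. Of 14 growth factor genes, 5 rose, among them Igfbp5 and the receptor Pdgfrb, and 1, Fgfr1, fell (median 0.80). The other collagen-positive barcodes gave 2 rises and 6 falls of 13 solute carriers and 3 and 2 of 19 TGF-beta and BMP genes. There 3 of 20 transcription factors rose and 4 fell, and 4 of 18 growth factor genes rose and 2 fell.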
